A study of Mus musculus with 60 samples.

Results

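The response to BDNF at day 5 in vitro (DIV5) was followed here in mouse primary cortical neurons that received paxillin siRNA, by comparing the libraries labelled paxillin siRNA with BDNF against those labelled paxillin siRNA without it. These were 11 of the 60 samples of the series: 5 cultures with BDNF (numbers 1, 2, 4, 10 and 11) and 6 without (the same numbers and number 3). All 11 cultures were of WT genotype, came from the cerebral cortex and received siRNA against paxillin at DIV2. The treated group was also given BDNF at 20 ng/ml at DIV2, so that RNA was taken after 3 days of exposure. Scrambled (SC) siRNA cultures of the same age (4 with BDNF, 4 without) and paxillin siRNA cultures at DIV3 (4 with BDNF, 5 without, after 1 day of exposure) were used to ask where this response differed. The series asks how paxillin, a focal adhesion scaffold protein, acts on neuronal gene expression and splicing during maturation. The knockdown is a model of lowered, not absent, paxillin, and the cultures are a mixture of cell types.

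BDNF is a secreted neurotrophin that binds the receptor tyrosine kinase TrkB, encoded by Ntrk2. The active receptor signals through RAS and ERK, PI3K and AKT, and phospholipase C, and ERK and its RSK kinases drive a first wave of immediate early transcription factors, followed by phosphatases and Sprouty proteins that restrain the pathway. In cortical cultures BDNF is known for raising neuropeptides of inhibitory neurons and for shaping synapse maturation.

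Values are TPM (abundance per length, with a fixed sum for each library) for each gene. Differences are BDNF minus no BDNF on the log2(TPM + 1) scale, given with the standard error, and understate the change of low genes. TPM keeps no depth, so the number of reads behind a value is unknown. Genes averaging 1 TPM or more across all cortical libraries, 14250 in number, were tested with limma at a Benjamini-Hochberg adjusted p of 0.05. 3 limma fits are reported: an unpaired fit of all 48 cortical libraries, a fit of the 46 cultures with the culture number as a block, and a paired fit of the 5 cultures present on both sides. The unpaired fit was the planned test, and the culture number was planned as an alternative to it. List members past the paired threshold, which make up most results below, were picked after the values were seen. Where values per library are given, the 6 cultures without BDNF are described by the lowest, median and highest value, and the 5 with BDNF are listed in the order 1, 2, 4, 10 and 11. The labels do not say that cultures were prepared separately, so p-values measure the spread between these samples.

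The neuronal label was met by the marker genes, since 8 neuronal markers summed to 2507 to 3679 TPM without BDNF and 2203 to 4206 TPM with it. Other cell types were present. Astrocyte markers summed to 1149 to 2060 TPM without and 1393 to 2146 TPM with BDNF. Oligodendrocyte precursor markers summed to 1473 to 2750 and 1975 to 4592 TPM, and were higher with BDNF in 5 of 5 cultures, by 0.43 on average on the log2 scale of the sum. Dividing progenitor markers summed to 1444 to 2644 and 1370 to 3126 TPM and were higher in 3 of 5 cultures. 4 of 5 endothelial markers stayed below 0.5 TPM in every one of the 11 libraries, as did 1 of 6 microglial markers, P2ry12. The 6 microglial markers together summed to 18.01 to 53.4 TPM without and 28.6 to 68.1 TPM with BDNF. Their sum was higher with BDNF in 4 of 5 cultures, by 0.46 on average on the log2 scale. No marker of the 10 cell type lists passed the test in any of the 3 fits. In bulk RNA, more or fewer cells of a type and more or less RNA per cell cannot be told apart.

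Paxillin itself was measured first. Pxn (chr5:115491970-115555987, GRCm38.p6) stood at 13.1, 19.9, 12.4 and 16.4 TPM in SC siRNA cultures 1 to 4 without BDNF and at 8.43, 9.11 and 9.83 TPM (lowest, median, highest) under paxillin siRNA, so these groups did not overlap. With BDNF and paxillin siRNA the values were 8.74, 13.8, 12.8, 9.43 and 10.3 TPM, against 14.3, 17.9, 10.0 and 19.0 TPM in SC siRNA cultures 1 to 4 with BDNF, and here the groups overlapped. The SC and paxillin siRNA cultures also differed in cell type markers at the median: without BDNF, astrocyte markers had a median sum of 5885 TPM under SC siRNA and 1581 TPM under paxillin siRNA, oligodendrocyte precursor markers 7500.3 and 2323 TPM, and neuronal markers 1844 and 3069 TPM. The ranges overlapped, at 1407 to 8688 TPM under SC and 1149 to 2060 TPM under paxillin siRNA for astrocyte markers. For precursor markers they were 1910 to 10319 and 1473 to 2750 TPM, and for neuronal markers 1445 to 3804 and 2507 to 3679 TPM. Their part in any comparison between the siRNAs was not tested. Under paxillin siRNA Pxn was higher with BDNF in 4 of 5 cultures, with differences of -0.067, 0.46, 0.46, 0.15 and 0.21, and cultures 2 and 4 carried most of it. The mean difference was 0.22 on the log2 scale (2-sided exact permutation test, 5 against 6 libraries, p = 0.065). Paired by culture it was 0.24 (exact permutation test over pairs, p = 0.13, where the smallest possible is 0.063). The p fell to 0.014 without the BDNF library of culture 1, to 0.043 without that of culture 10, and to 0.03 with median ratio size factors. It was 0.15 and 0.14 without the BDNF library of culture 2 or 4, 0.16 without the untreated library of culture 10, and 0.2 without cultures 10 and 11.

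**Figure D1:**
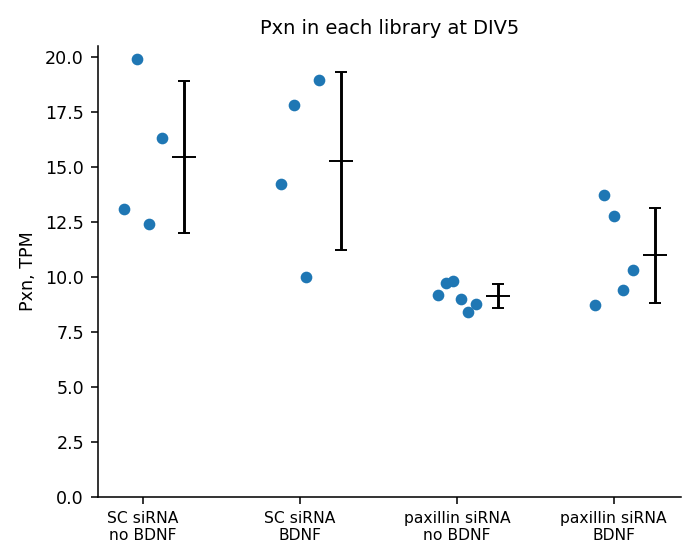
Pxn in TPM (vertical axis, from 0) in each library at DIV5, by siRNA and BDNF, with the mean and SD beside the points. The 6 paxillin siRNA libraries without BDNF lie between 8.43 and 9.83 TPM, below the 4 SC siRNA libraries without BDNF, and the 5 with BDNF reach 13.8 TPM.

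At the level of the whole transcriptome, the number of genes past the threshold depended on whether culture was modelled. The unpaired fit called 2 genes, or 0.014% of those tested, both lower with BDNF, while 981 had an unadjusted p under 0.05. The block fit of 46 cultures called 56 genes (0.393%), 18 higher (0.126%) and 38 lower (0.267%). The paired fit of the 5 cultures called 717 genes (5.03%), 358 higher (2.51%) and 359 lower (2.52%), and 51 of the 56 were among them with the same sign. The 2 genes of the unpaired fit were called in all 3. Among the 18 gene lists described below, the block fit called 6 members, Rps6ka2, Tac1, Bmp2, Neurod1, Kcnh1 and Col6a1, so that every other list member said to rise or fall did so in the paired fit and not in the block fit. The paired count rested on each culture: it was 0 without culture 10 (3874 genes at an unadjusted p under 0.05), 33 without 11, 49 without 4, 76 without 2 and 443 without 1. The block count was 11 without culture 2, 23 without 10, 28 without 1 or 4, and 34 without 11. The unpaired count was 1 without the paxillin siRNA library of culture 1, 2 or 4 or the BDNF library of culture 2 or 10, and otherwise 2 to 14, with 14 without the BDNF library of culture 1, 10 without that of 11, and 7, 5 and 3 without the untreated library of 3, 10 and 11. 2209 genes (15.5%) were higher and 2194 (15.4%) lower in 5 of 5 cultures, and for 74 (0.519%) and 135 (0.947%) the groups did not overlap at all.

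The 2 genes lower with BDNF in all 3 fits were Cntn6 and Rps6ka2. Cntn6 (chr6:104492662-104863406), a neuronal immunoglobulin-family adhesion protein of the contactin group, measured 1.40, 2.47 and 3.30 TPM without BDNF and 0.904, 0.507, 0.517, 0.649 and 0.921 TPM with it. The groups did not overlap, and the difference was -0.99 ± 0.16 (limma, adjusted p = 0.0046) unpaired and -1.08 ± 0.13 (adjusted p = 0.019) paired. Rps6ka2 (chr17:7088971-7303315) encodes RSK3, a kinase activated by ERK and thus a relay of TrkB signals, and measured 4.22, 5.08 and 5.996 TPM without and 3.07, 2.55, 3.35, 3.11 and 2.98 TPM with BDNF. Its groups also stayed apart, with a difference of -0.59 ± 0.11 (adjusted p = 0.017) unpaired and -0.64 ± 0.075 (adjusted p = 0.017) paired. Leaving out the untreated library of culture 1, 2 or 4 or the BDNF library of culture 2 or 10 moved the unpaired adjusted p of Rps6ka2 to between 0.052 and 0.17. When only the 2 groups were fitted without pairing, neither gene passed (adjusted p = 0.061 for Cntn6 and 0.065 for Rps6ka2), nor when only the 4 groups at DIV5 were fitted (adjusted p = 0.12 and 0.14). The region before a transcript start of Cntn6 is shown because it fell more than Rps6ka2, the other gene called in the unpaired fit (RefSeq, GRCm38.p6, chr6:104492794-104493043, plus strand, 250 bases, 5′ to 3′). No CRE (TGACGTCA), AP-1 (TGANTCA) or EGR (GCGTGGGCG) letters were found in it on either strand, so no base is in capitals.
Cntn6: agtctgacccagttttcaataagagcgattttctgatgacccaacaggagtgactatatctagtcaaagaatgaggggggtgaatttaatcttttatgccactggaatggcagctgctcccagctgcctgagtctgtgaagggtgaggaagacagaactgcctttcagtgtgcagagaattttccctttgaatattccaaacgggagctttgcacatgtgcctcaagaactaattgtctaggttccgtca

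The next lowest p-values among lower genes belonged to Cacna1i, Ptprk and Bmp2, which did not pass unpaired but fell in both culture-matched fits. Cacna1i, the T-type calcium channel Cav3.3, measured 19.9, 35.9 and 50.8 TPM without and 21.2, 9.61, 13.4, 6.96 and 9.80 TPM with BDNF. Within cultures it differed by -1.22, -2.07, -1.49, -1.39 and -1.08, lower in 5 of 5, although BDNF culture 1 lay above the untreated libraries' lowest value, that of culture 10. The unpaired adjusted p was 0.059, against 0.001 in the block fit and 0.011 in the paired fit. Bmp2, a secreted bone morphogenetic protein, measured 5.55, 11.6 and 15.99 TPM without and 4.40, 1.66, 1.301, 2.41 and 5.09 TPM with BDNF, with no overlap and an unpaired difference of -1.61 ± 0.34 (adjusted p = 0.062, block 0.0012, paired 0.019). Ptprk, a receptor tyrosine phosphatase that takes part in cell contacts, measured 19.0 to 25.5 TPM without and 6.20 to 14.7 TPM with BDNF, again with no overlap (-1.13 ± 0.23, adjusted p = 0.059 unpaired and 0.027 paired).

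No gene rose past the threshold in the unpaired fit as fitted here, although 3 did with a pseudocount of 0.1 or with no filter on low values, 1 with only the 4 groups at DIV5, 2 without cultures 10 and 11, 3 without the BDNF library of culture 11, and 1 without that of culture 1 or the untreated library of culture 10. The smallest p-values in that direction belonged to Pcp4, Sult2b1, Trmt9b, Cpne7 and Cldn6, at adjusted p = 0.062, 0.065, 0.089, 0.089 and 0.1. All of them rose in the block fit, and all but Cldn6 (adjusted p = 0.053) in the paired fit. Pcp4, a small calmodulin-binding protein, measured 1.06, 1.26 and 2.64 TPM without and 3.32, 4.52, 3.46, 5.396 and 3.49 TPM with BDNF, a difference of 1.00 ± 0.083 within cultures (adjusted p = 0.0094). Cpne7, a calcium-dependent membrane-binding copine, went from 5.26, 7.92 and 11.02 TPM to 23.4, 33.1, 15.99, 18.9 and 15.4 TPM (1.25 ± 0.15, adjusted p = 0.019). For Pcp4, Sult2b1 (a sterol sulfotransferase), Trmt9b and Cpne7 every BDNF library lay above every untreated one. Cldn6, a tight-junction claudin, was more uneven: with BDNF it measured 5.05, 7.85, 3.30, 1.61 and 0.569 TPM, so that culture 11 stayed inside the untreated range of 0.179 to 0.969 TPM. Sult2b1, at 0.224 to 0.701 TPM untreated, and Cldn6 met the filter of 1 TPM through libraries where they were higher, BDNF libraries among them.

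The widest changes in size were in neuropeptides. Somatostatin (Sst, chr16:23889573-23891342), the peptide that names a class of cortical inhibitory neurons, measured 29.2, 72.5 and 194 TPM without BDNF and 215, 701, 169, 1799 and 787 TPM with it, a ratio of means of 8.61. Every culture rose, by 2.84, 2.84, 1.80, 3.21 and 2.92, and the spread between cultures was as wide as the response, so that the unpaired difference of 2.88 ± 0.98 gave an adjusted p of 0.49 and the paired difference of 2.72 ± 0.19 an adjusted p of 0.0094. Cultures 1 and 4 stayed near the top of the untreated range and cultures 2, 10 and 11 went well beyond it. Cort, which encodes the related peptide cortistatin, went from 1.81, 4.49 and 8.13 TPM to 29.9, 89.4, 13.7, 39.4 and 28.01 TPM without overlap (2.46 ± 0.26, paired adjusted p = 0.014). Tac1, the substance P precursor, went from 1.08, 1.96 and 3.68 TPM to 10.7, 19.4, 3.53, 38.8 and 20.8 TPM, and culture 4 moved least, by 0.44 (2.28 ± 0.37, paired adjusted p = 0.031). Crh, corticotropin-releasing hormone, measured 2.14, 9.21 and 19.0 TPM without and 34.7, 69.9, 25.0, 18.7 and 39.4 TPM with BDNF (1.47 ± 0.19, paired adjusted p = 0.02). Its binding protein Crhbp was close to 0 without BDNF, at 0.0206, 0.0945 and 0.167 TPM, and reached 3.798, 5.58, 0.593, 5.71 and 3.34 TPM with it (1.97 ± 0.31, paired adjusted p = 0.029). Crhbp met the filter of 1 TPM only through libraries where it was high, those with BDNF among them. Its adjusted p is therefore no independent support for a rise. In the block fit Tac1 passed (adjusted p = 0.024), and Sst, Cort, Crh and Crhbp did not (adjusted p = 0.18, 0.16, 0.29 and 0.083). Cort, Tac1, Crh and Crhbp were chosen for description after their values were seen.

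Not all secretory genes went up. Of 26 tested members of the list of neuropeptides and granule proteins, the paired fit called 5 higher (Sst, Cort, Tac1, Crh and the enkephalin precursor Penk) and 2 lower, against 2.51% and 2.52% of all genes tested, and 19 did not pass. The block fit called Tac1 alone. The list median was 0.11, against 0.0092 over all genes tested. Cholecystokinin (Cck) fell, from 36.5, 75.9 and 109 TPM to 55.0, 33.7, 16.9, 45.4 and 62.2 TPM (-1.02 ± 0.19, paired adjusted p = 0.039), as did Pcsk2, the convertase that cuts peptide precursors (-0.86 ± 0.15, paired adjusted p = 0.033). Vgf, a granule protein known as a BDNF target, measured 17.3, 54.1 and 80.1 TPM without and 227, 197, 68.6, 327 and 195 TPM with BDNF, higher in 5 of 5 cultures, but missed the paired threshold (2.01 ± 0.46, adjusted p = 0.056). Npy measured 14.97 to 74.4 TPM without and 40.2 to 206 TPM with BDNF, higher in 4 of 5 (1.54 ± 0.54, adjusted p = 0.11). The most abundant members, the granins Scg2 and Chgb, did not pass, at -0.70 ± 0.29 and -0.30 ± 0.19 (paired adjusted p = 0.15 and 0.3).

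The regions before the starts of 3 of these peptide genes and of Fos, which rose with them, are shown to compare them (RefSeq, GRCm38.p6, the 250 bases before the transcript start used in the RefSeq table, which lies inside the outermost gene bounds for Sst and Cntn6, 5′ to 3′). They lie at chr16:23890845-23891094, minus strand for Sst, chr4:149126764-149127013, minus strand for Cort, chr6:7554811-7555060, plus strand for Tac1 and chr12:85473640-85473889, plus strand for Fos. Capitals mark a full match to the CRE letters TGACGTCA, the element bound by CREB, searched on both strands. Only Sst held it, starting 48 bases before that start, and no AP-1 or EGR match was found in these 4 windows. Of 32851 RefSeq windows of this length, 1.55% held the CRE letters, 6.75% AP-1 and 0.536% EGR. Counted by gene among 11256 tested genes with a window, the shares were 3.03%, 5.01% and 1.16%. A match in letters does not show binding.
Sst: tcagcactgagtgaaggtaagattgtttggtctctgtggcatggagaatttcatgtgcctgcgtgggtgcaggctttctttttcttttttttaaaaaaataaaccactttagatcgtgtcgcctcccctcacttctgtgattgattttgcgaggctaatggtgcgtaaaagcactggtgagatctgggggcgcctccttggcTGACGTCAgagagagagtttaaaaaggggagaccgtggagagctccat
Cort: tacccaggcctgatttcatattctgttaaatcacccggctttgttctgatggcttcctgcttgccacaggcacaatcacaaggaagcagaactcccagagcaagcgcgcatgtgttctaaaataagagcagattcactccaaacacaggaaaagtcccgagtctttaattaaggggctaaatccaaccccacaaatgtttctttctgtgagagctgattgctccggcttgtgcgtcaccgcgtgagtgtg
Tac1: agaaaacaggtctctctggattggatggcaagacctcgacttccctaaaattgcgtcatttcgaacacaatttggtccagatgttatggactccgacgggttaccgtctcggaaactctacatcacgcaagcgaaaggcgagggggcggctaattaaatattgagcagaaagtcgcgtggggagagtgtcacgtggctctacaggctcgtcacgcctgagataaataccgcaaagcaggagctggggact
Fos: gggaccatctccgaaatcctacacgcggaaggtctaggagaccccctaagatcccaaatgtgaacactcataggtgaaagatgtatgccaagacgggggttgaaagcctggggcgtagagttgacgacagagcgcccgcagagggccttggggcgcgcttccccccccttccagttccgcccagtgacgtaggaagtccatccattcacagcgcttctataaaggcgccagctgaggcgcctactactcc

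**Figure D2:**
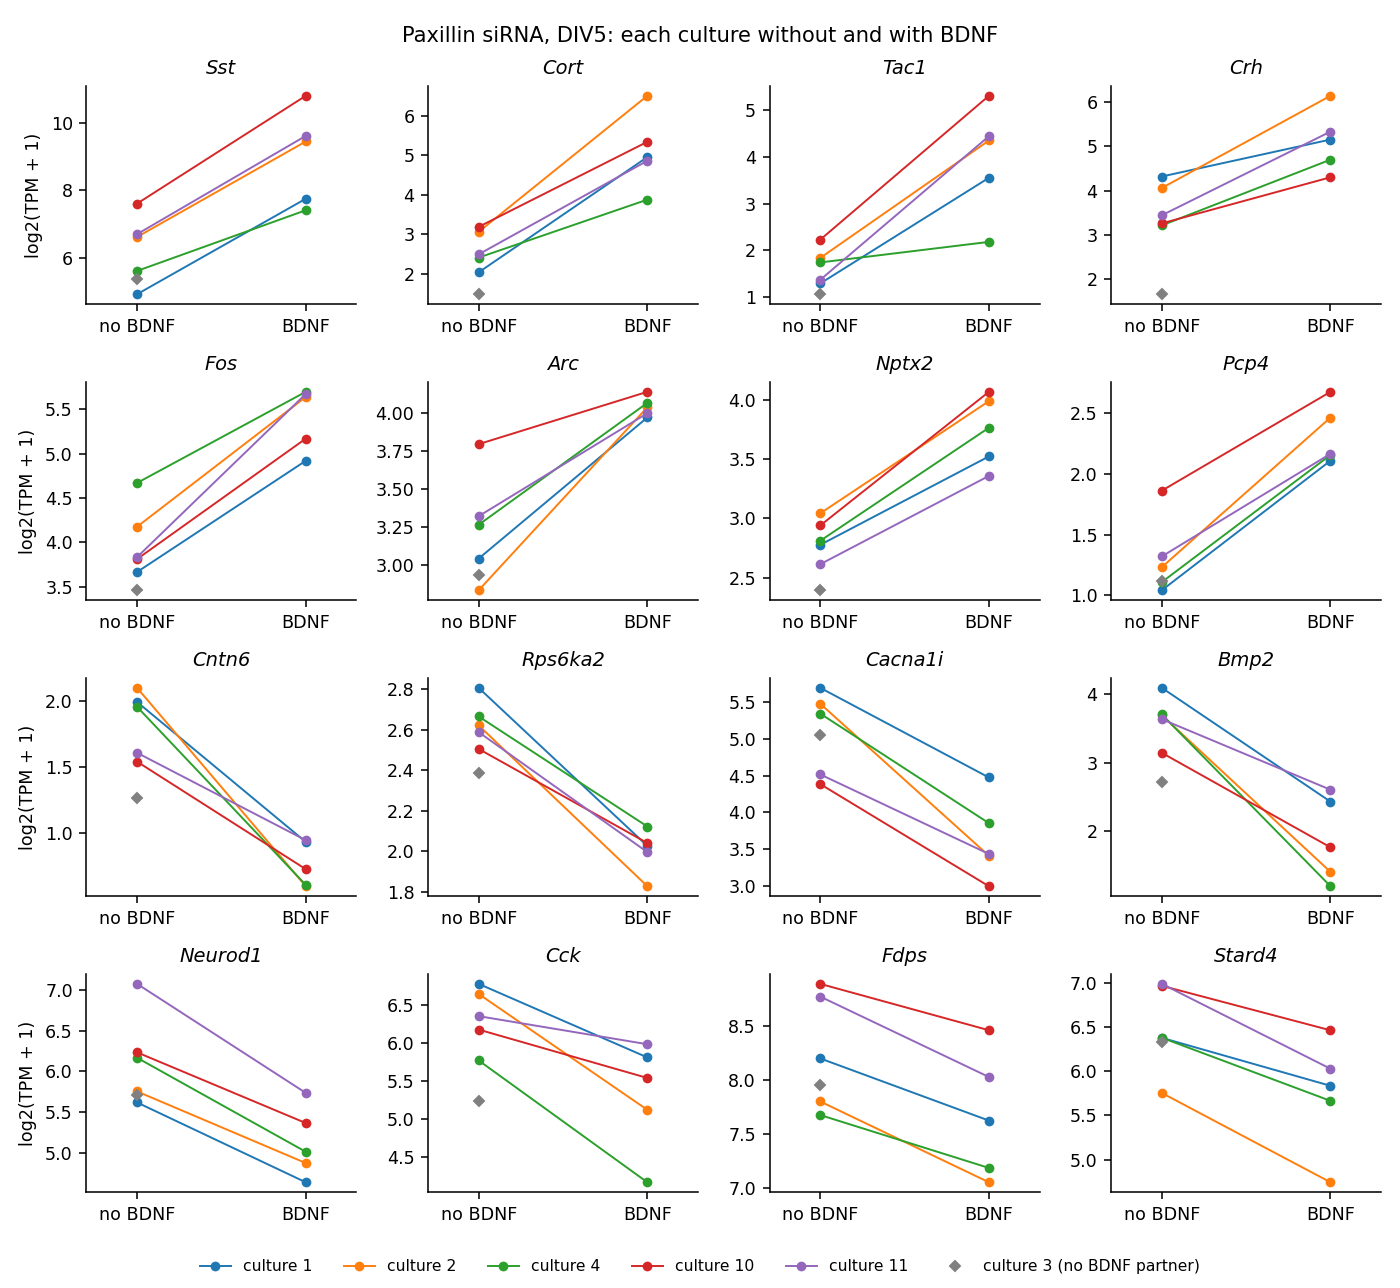
Expression of 16 genes on the log2(TPM + 1) scale (vertical axis, a separate range for each gene) without and with BDNF in paxillin siRNA cultures at DIV5, with a line for each culture present on both sides and a grey diamond for culture 3. In each panel the 5 lines run the same way, and for Sst the cultures differ among themselves about as much as they change, from 1.80 to 3.21.

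Of 26 tested interneuron genes the paired fit called 1 higher (Sst) and 1 lower (Calb1, the calcium buffer calbindin, -0.90 ± 0.16, adjusted p = 0.037), and 24 did not pass (7.69% called, against 5.03% of all genes), with a list median of 0.20. Gad1, which makes GABA, measured 23.0 to 37.8 TPM without and 28.8 to 52.1 TPM with BDNF (0.37 ± 0.11, paired adjusted p = 0.084). The GABA transporter Slc32a1 differed by 0.14 ± 0.076 (adjusted p = 0.24), and Lhx6, the transcription factor of the lineage that includes Sst cells, by -0.47 ± 0.19 (adjusted p = 0.15), lower in 4 of 5 cultures. Dlx1, the most abundant member by the mean of the 11 libraries, differed by 0.44 ± 0.13 (adjusted p = 0.087).

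Bdnf mRNA itself measured 1.05, 1.48 and 2.40 TPM without and 3.27, 1.35, 0.834, 3.10 and 1.65 TPM with BDNF, higher in 3 and lower in 2 cultures (0.21 ± 0.46 unpaired, adjusted p = 0.94). Ntrk2 measured 28.3, 42.9 and 55.0 TPM without and 35.9, 29.6, 37.8, 39.8 and 41.9 TPM with BDNF, lower in 5 of 5 cultures, with differences that missed the threshold (-0.29 ± 0.086, paired adjusted p = 0.082, unpaired 0.9). Of 7 tested neurotrophins and receptors the paired fit called 1, the p75 receptor Ngfr, which fell (-0.48 ± 0.070, adjusted p = 0.025), 14.3% of the list against 2.52% of all genes called lower, and the sorting receptor Sort1 did not pass (-0.42 ± 0.17, adjusted p = 0.14). Of 32 relay genes, 3 fell in the paired fit (9.38%), among them Rps6ka2 and the PI3K regulatory subunit Pik3r1 (-0.50 ± 0.059, adjusted p = 0.017). None rose, and the list median was -0.090.

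Of 28 tested immediate early genes the paired fit called 12 higher and 1 lower, against 2.51% and 2.52% of all genes tested. The other 15 did not pass, and the median was 0.56, while neither the unpaired nor the block fit called any. Fos, a subunit of AP-1, measured 10.0, 13.2 and 24.4 TPM without and 29.2, 48.7, 50.8, 34.9 and 49.9 TPM with BDNF, with no overlap (1.38 ± 0.11, paired adjusted p = 0.0094, unpaired 0.54). Arc, an effector of synaptic plasticity, measured 6.12, 7.91 and 12.9 TPM without and 14.6, 15.4, 15.7, 16.6 and 14.96 TPM with BDNF. The BDNF libraries were close together and all above the untreated ones (0.79 ± 0.12, paired adjusted p = 0.027). Egr1 measured 37.5, 88.4 and 114 TPM without and 119.1, 142, 60.9, 192 and 291 TPM with BDNF, higher in 5 of 5 cultures but with overlap (0.74 ± 0.15, paired adjusted p = 0.042). Fosb, Jun, Junb, Nr4a1, Ier2, Ier5, Btg2, Atf3 and Ccn1 made up the rest, with paired differences of 0.55 (Jun) to 0.90 (Fosb). Egr2 just missed the threshold (0.78 ± 0.18, adjusted p = 0.057), and Jund, among the most abundant members, did not pass (0.50 ± 0.17, adjusted p = 0.11). Nr4a2, an orphan nuclear receptor, fell (-0.74 ± 0.15, adjusted p = 0.043).

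Of 20 tested genes on the list named ERK feedback inhibitors, 4 rose in the paired fit (20.0%, against 2.51% of all genes) and none fell. None passed in the unpaired or block fit, and the list had a median of 0.18. Membership of the list does not show that a phosphatase acts on ERK itself. The 4 genes that rose were the phosphatases Dusp4 (0.80 ± 0.11, adjusted p = 0.025), Dusp1 (0.48 ± 0.098, adjusted p = 0.0455) and Dusp10 (0.43 ± 0.093, adjusted p = 0.0499), and the Sprouty protein Spry2. Spry2 measured 60.4, 67.6 and 80.2 TPM without and 70.6, 109, 117, 137 and 98.6 TPM with BDNF (0.62 ± 0.089, adjusted p = 0.025). Dusp6, a phosphatase specific for ERK, measured 55.1, 135 and 173 TPM without and 181, 93.9, 126, 125 and 84.5 TPM with BDNF and went up in 3 and down in 2 cultures (0.14 ± 0.20, adjusted p = 0.64), and Dusp8 differed by 0.012 ± 0.071 (adjusted p = 0.92). Nab2, a corepressor of EGR proteins that was singled out after its values were seen, rose in the paired and block fits, from 21.5, 31.9 and 36.8 TPM to 58.0, 53.7, 60.7, 44.3 and 37.9 TPM (0.75 ± 0.065, adjusted p = 0.0095 and 0.024).

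The response at DIV5 was smaller than after 1 day of BDNF at DIV3 for a small set of genes. BDNF was added at DIV2 in both, so DIV5 cultures were older and also exposed longer (3 days against 1). Age and length of exposure cannot be told apart in this comparison. The test of the difference between the effects, DIV5 minus DIV3, under paxillin siRNA called 19 genes (0.133%) in the unpaired fit, 18 lower (0.126%) and 1 higher (0.00702%). At DIV3 itself BDNF changed 305 genes (2.14%) in that fit, 187 higher (1.31%) and 118 lower (0.828%), and 2441 (17.1%) in a paired fit of 4 cultures, 1395 higher (9.79%) and 1046 lower (7.34%). Arc rose at DIV3 from 4.34, 4.87, 5.04, 8.60 and 5.401 TPM (cultures 1, 2, 3, 10 and 11) to 207, 168, 217 and 223 TPM (cultures 1, 2, 10 and 11), an effect of 4.97 ± 0.39, against 0.84 ± 0.35 at DIV5. The difference between the effects was -4.12 ± 0.52 (limma, adjusted p = 1.1e-05). Egr2 measured 0.826 to 1.82 TPM without and 38.1 to 81.1 TPM with BDNF at DIV3, and 0.877 to 2.86 and 1.49 to 5.39 TPM at DIV5. Its effects differed by -3.87 ± 0.45 (adjusted p = 2.6e-06). For Egr1 the difference was -3.24 ± 0.59 (adjusted p = 0.0039), for Nab2 -1.86 ± 0.31 (adjusted p = 0.0013) and for Cpne7 -2.33 ± 0.45 (adjusted p = 0.0084). Arc, Egr1, Nab2 and Cpne7 also passed the paired fit at DIV5, as given above, so that a smaller response was still measured there.

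Fam131a, Galr1 and Peg10 also had a smaller effect at DIV5. Fam131a measured 48.8 to 72.4 TPM without and 58.7 to 72.8 TPM with BDNF at DIV5, against 33.9 to 42.2 and 121 to 192 TPM at DIV3 (difference of effects -1.87 ± 0.28, adjusted p = 3.3e-04). Galr1, a galanin receptor, measured 0 to 0.117 TPM without and 0.0524 to 0.588 TPM with BDNF at DIV5, against 0.0186 to 0.254 and 2.72 to 38.2 TPM at DIV3 (-2.92 ± 0.49, adjusted p = 0.0013). With 3 of these groups below 1 TPM, Galr1 was tested only because of libraries where it was high, those with BDNF at DIV3 among them. Its adjusted p is no independent support for that rise. Peg10, a gene derived from a retrotransposon, differed by -3.03 ± 0.50 (adjusted p = 0.0013), and its remaining effect at DIV5 was 0.32 ± 0.065 (paired adjusted p = 0.043). In the other direction, Gdf9, a secreted growth factor, fell at DIV3 (-0.60 ± 0.14, adjusted p = 0.01) and measured 0.26 ± 0.13 at DIV5, and the difference of 0.86 ± 0.19 passed (adjusted p = 0.039). Cdc42ep4, Peli2, Lrrc56 and Trim17 had the next smallest p-values in that direction and did not pass unpaired (adjusted p = 0.15, 0.078, 0.32 and 0.31), but did with the culture block in the 4 groups (adjusted p = 0.018, 0.013, 0.0079 and 0.014). With the culture block in these 4 groups 534 genes (3.75%) differed, 194 higher (1.36%) and 340 lower (2.39%). Without cultures 10 and 11, the unpaired count was 2, Arc and Egr2. It was 12 without the DIV3 untreated library of culture 1, the DIV3 BDNF library of culture 10 or 11, or the DIV5 BDNF library of culture 2, and Gdf9 lost its call when any of 15 of the 20 libraries was left out.

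For Sst and Fos no difference between DIV5 and DIV3 passed. The effect on Sst was 2.23 ± 1.09 at DIV3 and 2.88 ± 0.98 at DIV5 (difference 0.65 ± 1.46, 95% interval -2.32 to 3.61), and that on Fos 1.70 ± 0.60 and 1.48 ± 0.55 (difference -0.22 ± 0.81, 95% interval -1.87 to 1.42). Both intervals are wide, and a difference that misses the threshold does not show that the effects were alike. The 28 immediate early genes had a median difference between DIV5 and DIV3 of -0.30, with 3 called in the unpaired fit (Arc, Egr1 and Egr2) and 6 with the culture block in the 4 groups, all lower at DIV5. Of the 20 genes on the list of ERK feedback inhibitors, 0 were called unpaired and 7 with the block, all lower at DIV5. In that block fit 2.39% of all genes were called lower.

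**Figure D3:**
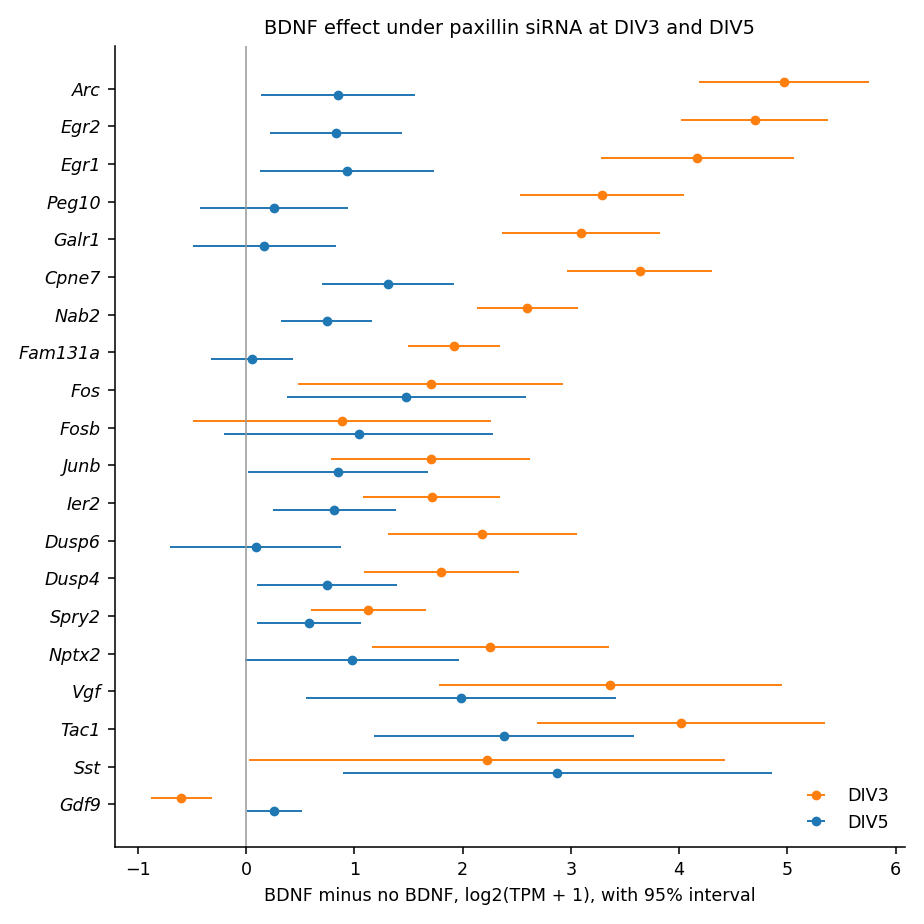
BDNF effect (BDNF minus no BDNF, log2(TPM + 1), horizontal axis) under paxillin siRNA at DIV3 and DIV5 for 20 genes from the unpaired limma fit, with 95% intervals as bars. Arc, Egr2 and Egr1 lie above 4 at DIV3 and below 1 at DIV5, while the intervals of Sst and Fos on the 2 days overlap.

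Of 25 secreted synapse organizers and activity effectors, 3 rose and 2 fell in the paired fit (20.0%, against 5.03% of all genes in either direction). Nptx2, a pentraxin that clusters AMPA receptors, measured 4.26, 5.93 and 7.24 TPM without and 10.5, 14.9, 12.6, 15.8 and 9.25 TPM with BDNF, with no overlap (0.90 ± 0.075, adjusted p = 0.0094). Neuritin (Nrn1) and the receptor Gpr3 also rose (0.33 and 0.86), Bmp2 and the G protein regulator Rgs2 (-0.54 ± 0.063, adjusted p = 0.017) fell, and the abundant Sparcl1 and Nptxr did not pass (-0.39 and -0.51). Of 35 synaptic vesicle genes, 2 fell (5.71%, near the 5.03% of all genes): Syn3 (-0.35 ± 0.065, adjusted p = 0.04) and Syt2 (-0.44 ± 0.075, adjusted p = 0.033). Syt4 and Vamp2, the most abundant, measured -0.86 ± 0.29 and 0.11 ± 0.077 (adjusted p = 0.11 and 0.37). Of 36 glutamate receptor and postsynaptic genes 2 passed (5.56%, also near that share): the NMDA receptor subunit Grin2c rose (0.56 ± 0.068, adjusted p = 0.019) and the metabotropic receptor Grm3 fell (-0.76 ± 0.16, adjusted p = 0.049), while Dlg4 (PSD-95) and Cnih2 did not pass (0.14 and -0.058). The medians of the vesicle and glutamate lists were -0.16 and -0.16.

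Ion channel genes leaned lower, with a median of -0.31 over 29 tested members, of which 3 fell and 1 rose in the paired fit (13.8%, against 5.03% of all genes). Kcnq3, a subunit of the M-current channel, went from 6.47, 12.9 and 16.03 TPM to 8.21, 2.67, 3.66, 8.42 and 8.04 TPM (-1.08 ± 0.21, adjusted p = 0.04). Kcnh1, another potassium channel, fell in the paired and block fits (-0.98 ± 0.13, adjusted p = 0.02 and 0.024), and the T-type calcium channel Cacna1g in the paired fit (-0.49 ± 0.087, adjusted p = 0.038). Kcna1 rose (0.70 ± 0.15, adjusted p = 0.0489). The abundant Scn3b did not pass (-0.31).

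Genes of immature neurons were lower at the median (-0.24 over 29 members), and 2 fell (6.90%, against 2.52% of all genes). Neurod1, a proneural transcription factor, measured 48.2, 61.9 and 134 TPM without and 24.0, 28.4, 31.4, 40.3 and 52.4 TPM with BDNF, a fall in every culture, with differences of -0.98, -0.88, -1.15, -0.87 and -1.33 (-1.04 ± 0.081, paired adjusted p = 0.0094, block 0.016). Doublecortin (Dcx), a microtubule protein of migrating neurons, fell by 0.37 on the log2 scale (adjusted p = 0.049). The tubulins Tuba1a and Tubb2b did not pass (-0.37 and -0.18).

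Besides Bmp2 and Cacna1i, the largest falls of the paired fit, chosen by size after the values were seen, were in genes of varied function. Mafa, a transcription factor, measured 5.46, 15.5 and 55.2 TPM without and 3.70, 3.16, 4.60, 3.64 and 7.03 TPM with BDNF and the groups overlapped (-1.94 ± 0.26, adjusted p = 0.021). Frzb, a secreted Wnt antagonist (-1.88 ± 0.36, adjusted p = 0.04), and Gjd2, the neuronal gap junction protein connexin 36 (-1.67 ± 0.27, adjusted p = 0.031), followed. Gjd2 measured 51.3, 124 and 165 TPM without and 82.4, 25.6, 21.6, 49.1 and 60.4 TPM with BDNF, and its lowest untreated library was that of culture 3. Met, the hepatocyte growth factor receptor (-1.37 ± 0.23, adjusted p = 0.032), the cadherin Cdh6 (-1.35 ± 0.27, adjusted p = 0.042), the synaptotagmin Syt10 (-1.34 ± 0.15, adjusted p = 0.016) and the vasopressin receptor Avpr1a (-1.31 ± 0.28, adjusted p = 0.0477) were next in size. Of these, Mafa, Frzb, Gjd2, Cdh6, Syt10 and Avpr1a also fell in the block fit, and Met did not pass there (adjusted p = 0.12).

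Of 24 tested genes of cholesterol synthesis 9 fell in the paired fit (37.5%, against 2.52% of all genes called lower) and none rose. In 5 of 5 cultures 18 were lower, as were 15.4% of all genes, and the median was -0.58. No member passed in the unpaired or block fit. Fdps, which makes farnesyl diphosphate, measured 203, 269.8 and 472 TPM without and 196, 132, 145, 351 and 259.7 TPM with BDNF and differed by -0.57, -0.75, -0.49, -0.43 and -0.74 in the 5 cultures (-0.60 ± 0.068, adjusted p = 0.016). The groups overlapped, and cultures 10 and 11 were the highest on each side. Stard4, a sterol carrier, measured 52.9, 82.1 and 126 TPM without and 56.1, 25.8, 49.7, 87.1 and 64.2 TPM with BDNF, also with overlap (-0.75 ± 0.090, adjusted p = 0.019). Acat2, Mvk, Mvd, Lss, Nsdhl and Hsd17b7 fell by 0.43 to 0.61. The abundant synthase Hmgcs1 did not pass (-0.60 ± 0.16, adjusted p = 0.066).

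Among the remaining lists the calls were few. Of 38 genes of the amino acid stress response, 4 rose in the paired fit (10.5%, against 2.51% of all genes) and none passed in the block fit. They were the transcription factors Ddit3 (0.67 ± 0.12, adjusted p = 0.038) and Cebpb (0.58 ± 0.12, adjusted p = 0.0463), the pseudokinase Trib3 (0.48 ± 0.079, adjusted p = 0.031) and Nupr1 (0.83 ± 0.14, adjusted p = 0.031). Atf4 and Ddit4, the most abundant, measured 0.013 and -0.12, and the list median was -0.020. Of 31 cell cycle genes none passed in any fit, although 18 were higher in 5 of 5 cultures, as were 15.5% of all genes, and the median was 0.31. Hmgb2 and Pcna measured 0.44 ± 0.17 and 0.12 ± 0.088 (adjusted p = 0.13 and 0.35). Dividing progenitor and oligodendrocyte precursor markers, at the levels given above, were higher in 3 and 5 of these 5 cultures, and their part in this was not tested.

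Of 22 extracellular matrix genes, 2 rose in the paired fit (9.09%, against 2.51% of all genes). Col6a1, a collagen VI chain, measured 1.08, 1.81 and 3.45 TPM without and 6.79, 21.1, 4.41, 14.02 and 7.70 TPM with BDNF, with no overlap (1.96 ± 0.27, adjusted p = 0.021, block 0.021). Lgals1, the lectin galectin-1, outside that list and singled out for its size, measured 3.21 to 7.70 TPM without BDNF and up to 33.95 TPM with it, all 5 BDNF libraries above the untreated ones (1.74 ± 0.18, adjusted p = 0.014). The proteoglycan Bgn also rose (0.67 ± 0.095, adjusted p = 0.025), and the abundant Sparc and Lamb2 did not pass (0.33 and 0.18). Mural and fibroblast markers summed to 6.18 to 38.1 TPM without and 9.13 to 26.8 TPM with BDNF and were higher in 4 of 5 cultures, and their part in these values was not tested. Of 37 focal adhesion and integrin genes, which include the partners of paxillin, the adaptor Crk fell (-0.23 ± 0.049, adjusted p = 0.0459) and the other 36 did not pass. That is 2.703% of the list, near the 2.52% of all genes called lower. Flna and Git1 measured -0.15 and 0.093. Of 42 splicing factors none passed in any fit, with a median of -0.041, and Hnrnpa1 and Hnrnpa2b1 measured -0.088 and -0.12. Of 14 interferon-stimulated genes Stat2 fell (-0.30 ± 0.066, adjusted p = 0.0491), 7.14% of the list, and Irf9 measured 0.029.

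**Figure D4:**
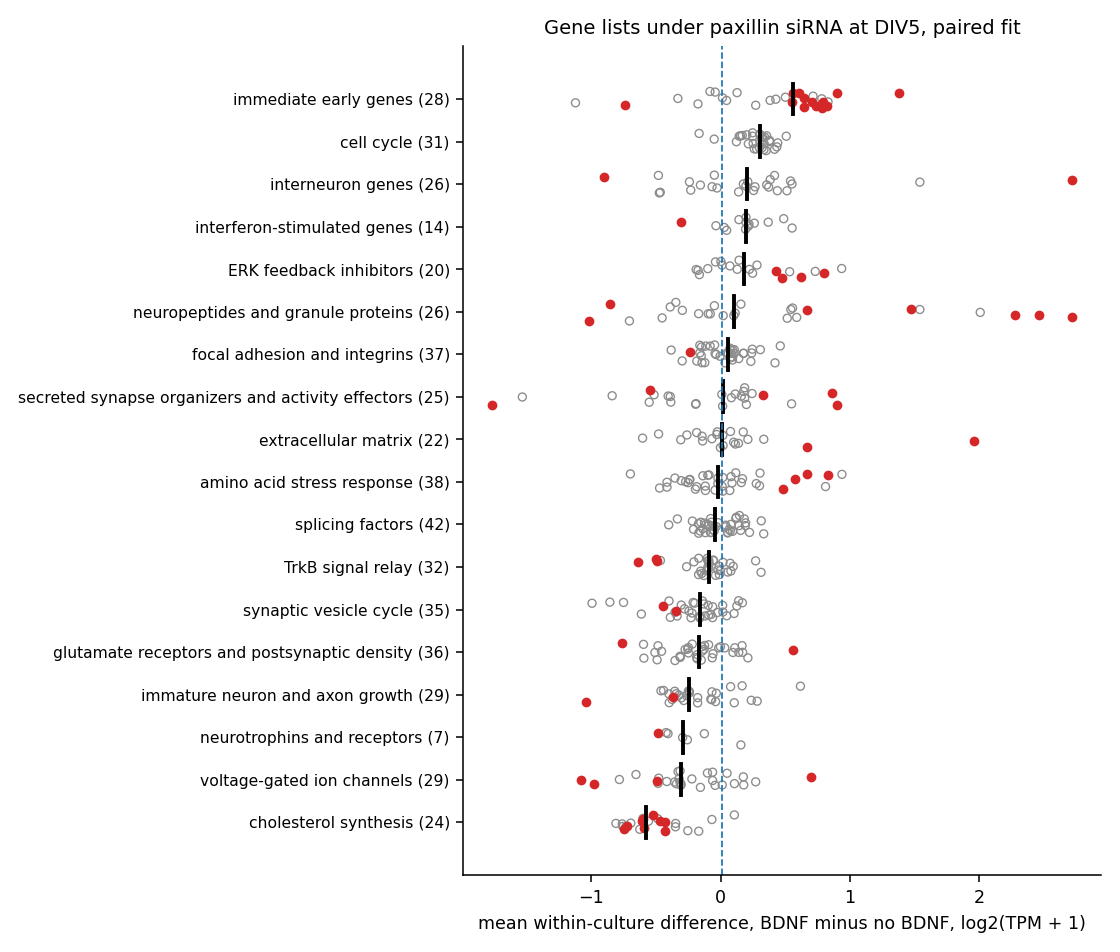
Mean difference within the 5 cultures (log2(TPM + 1), horizontal axis) for each tested member of 18 gene lists under paxillin siRNA at DIV5, with the number tested in parentheses, filled points for genes past the paired threshold, a black bar for the list median and a dashed line for the median of all genes tested. Immediate early genes lie furthest right, with a median of 0.56, and cholesterol synthesis furthest left, with a median of -0.58.

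Whether paxillin siRNA altered the response was tested as the difference between the BDNF effects under paxillin and SC siRNA at DIV5. No gene passed in the unpaired fit (116 at an unadjusted p under 0.05) or in the fit with a culture block (585 at an unadjusted p under 0.05). Under SC siRNA BDNF itself changed 7 genes (0.0491%) in the unpaired fit, 1 higher (0.00702%) and 6 lower (0.0421%), and 20 (0.14%) in a paired fit of 4 cultures, 8 higher (0.0561%) and 12 lower (0.0842%). Cntn6 differed by -0.99 ± 0.16 under paxillin siRNA and by -1.09 ± 0.19 under SC siRNA, and the difference of 0.099 had a 95% interval of -0.40 to 0.60. For Rps6ka2 the effects were -0.59 ± 0.11 and -0.63 ± 0.13 (interval of the difference -0.30 to 0.37), and for Pcp4 1.03 ± 0.22 and 0.91 ± 0.25 (interval -0.54 to 0.80). For these 3 genes the intervals reach at most 0.80 in size. For the peptides they were much wider: Sst differed by 2.88 ± 0.98 and 2.73 ± 1.15, with an interval of -2.90 to 3.20, and Crhbp by 1.97 ± 0.55 and 3.14 ± 0.64, with an interval of -2.87 to 0.54.

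The smallest p-values for a larger effect under paxillin siRNA belonged to Pcx, Egr1, H4c4, Spata13 and Ctnnd2, and those for a smaller effect to Iglon5, Mir17hg, Rhno1, Slc35b3 and Ccnj, all at an adjusted p of 1.0 after rounding. Egr1 had one of the largest differences, 1.78 ± 0.61 (95% interval 0.54 to 3.01). It measured 453, 323, 66.7 and 138 TPM in SC siRNA cultures 1 to 4 without BDNF and 179, 106, 78.6 and 85.3 TPM with it, against 37.5 to 114 and 60.9 to 291 TPM under paxillin siRNA. Untreated SC siRNA cultures 1, 2 and 4 lay above every untreated paxillin siRNA library, and culture 3 among them. The astrocyte, oligodendrocyte precursor and neuronal marker sums of these groups differed at the median, with overlapping ranges, as given above. For Fos the untreated SC siRNA cultures measured 73.9, 72.0, 9.78 and 43.5 TPM and those with BDNF 98.6, 26.1, 24.5 and 28.1 TPM, a difference between the effects of 1.58 ± 0.84 (interval -0.12 to 3.28). The 28 immediate early genes had a median BDNF effect of -0.12 under SC siRNA and 0.54 under paxillin siRNA in the unpaired fit, and no member passed the test of the difference. The absence of calls does not show equal responses.

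**Figure D5:**
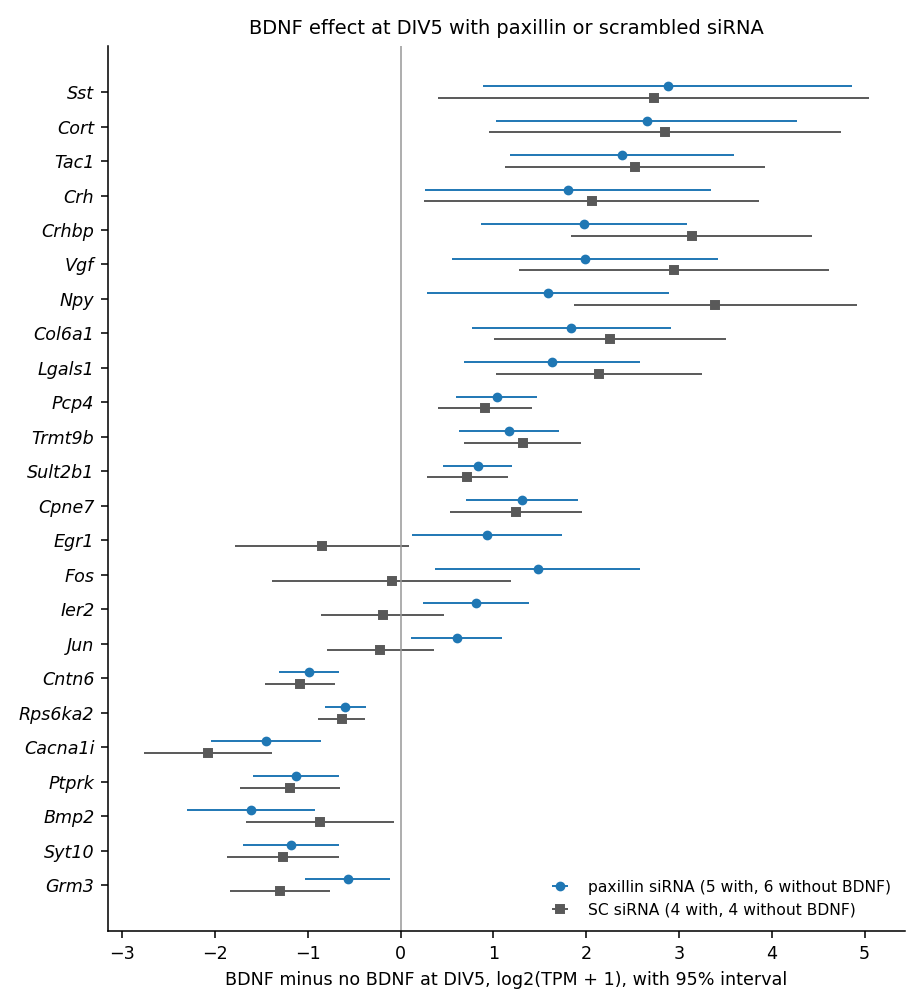
BDNF effect at DIV5 (BDNF minus no BDNF, log2(TPM + 1), horizontal axis) under paxillin siRNA (circles) and SC siRNA (squares) for 24 genes, from the unpaired limma fit with 95% intervals as bars. The intervals of Cntn6, Rps6ka2 and Pcp4 under the 2 siRNAs overlap, while the estimates for Egr1, Fos, Ier2 and Jun lie above 0 under paxillin siRNA and below 0 under SC siRNA, with no difference past the threshold.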

How the data were processed

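RNA of primary cortical neuron cultures was sequenced with short reads. The authors aligned the paired-end reads to the RefSeq GRCm38.p6 genome with STAR (2.7.10) and estimated expression with RSEM (1.3.3), per the submitters' processing notes, and deposited a table of 39756 genes in TPM for 48 cortical libraries. The hippocampal long-read table was not used here.

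From the deposited TPM, log2(TPM + 1) was computed, and the 14250 genes averaging 1 TPM or more across the 48 libraries were kept. limma (3.58.1, R 4.3.3) with empirical Bayes moderation and Benjamini-Hochberg adjustment gave all adjusted p-values, at a threshold of 0.05. The unpaired fit held 13 groups in 48 libraries. The block fit added the culture number as a fixed term in 46 cultures, and the paired fit held the 10 libraries of cultures 1, 2, 4, 10 and 11. The effects at DIV3 and under SC siRNA were subtracted as contrasts of the same fit. Pxn was tested with a 2-sided exact permutation test over libraries. The fits were also run on simulated data, built with a culture effect shared by all libraries of the same number. That run assumed the pairing and cannot show whether the numbers pair the real samples.

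The labels give culture numbers but do not say what they share. Deviations from the group means correlated at 0.317 to 0.782 in the 5 same-numbered pairs and at -0.569 to 0.606 (median -0.237) in differently numbered ones. Each BDNF library correlated best with its own number, in 5 of 5, so the numbers were taken to pair the samples. Some differently numbered pairs still exceeded the lowest same-numbered one, culture 2 at 0.317. BDNF culture 11 correlated at 0.606 with untreated culture 10, and BDNF culture 1 at 0.373 with untreated culture 2. The fits with a culture block also take a number to mean the same culture across siRNAs or days, and that was not checked.

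Genes were named by rule: Pxn, Bdnf and Ntrk2, genes past the unpaired threshold with the smallest p-values in each direction filled up to 5, the most abundant members of each list, and the genes with the smallest p-values in each test of a difference. Some genes that the rule names are not reported here. All other names were chosen after their values were seen. The members and lists were chosen with earlier results of these data known. Promoters and positions came from RefSeq GRCm38.p6. Of 167 genes named by the rule or chosen later, not all of them reported here, 65 overlap another RefSeq gene. Pxn, Cntn6 and Egr2 are among these, and reads of such neighbours may be shared. TPM carries no read depth, so precision rests on the spread between libraries.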

Additional observations from a re-analysis of the deposited data

Results flagged for a closer look

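In 4 of the 58 combinations of gene and group examined for a library far from the others of its group, 1 library stood apart, and chance sets apart about 1 in 20. All were in the untreated paxillin siRNA group at DIV5. Culture 3, which has no BDNF partner and so enters no paired difference, was the lowest for Gjd2 at 51.3 TPM, Syt10 at 3.04 TPM and Tmem200c at 63.7 TPM. Culture 10 was the highest for Pcp4, at 2.64 TPM.

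The BDNF effect at DIV5 differed from that at DIV3 under paxillin siRNA (limma, difference of effects on the log2 scale) for Arc by -4.12 (adjusted p = 1.1e-05), Egr2 by -3.87 (adjusted p = 2.6e-06), Egr1 by -3.24 (adjusted p = 0.0039), Peg10 by -3.03 and Galr1 by -2.92 (adjusted p = 0.0013 for both). It also differed for Cpne7 by -2.33 (adjusted p = 0.0084), Fam131a by -1.87 (adjusted p = 3.3e-04), Nab2 by -1.86 (adjusted p = 0.0013) and Gdf9 by 0.86 (adjusted p = 0.039). The first 8 were smaller at DIV5, and Gdf9, lower with BDNF at DIV3, was not at DIV5. Galr1 met the filter of 1 TPM only through libraries where it was high, as given above.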

How the results depend on the processing

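The unpaired count of 2 genes (0 higher, 2 lower) was 17 with no filter on low values (3 higher), 6 with a pseudocount of 0.1 (3 higher), 1 with only the 4 groups at DIV5 (1 higher and 0 lower, so that neither Cntn6 nor Rps6ka2 passed), 0 with only the groups compared (1531 at an unadjusted p under 0.05), 7 without culture 3, 6 without cultures 10 and 11 (2 higher), and 1 to 14 with a library left out. With the replicate block it was 56 in all 46 cultures, 175 in the 4 groups at DIV5 (chosen after seeing the data) and 717 in the groups compared. The other settings of the block and paired fits were also chosen after seeing the data. The paired count of 717 was 0 with no filter (5594 at an unadjusted p under 0.05) and 0 without cultures 10 and 11 (3476 unadjusted), and 443, 76, 49, 0 and 33 without culture 1, 2, 4, 10 and 11. The block count of 56 was 23 without cultures 10 and 11 and 28, 11, 28, 23 and 34 without culture 1, 2, 4, 10 and 11. The causes were not tested. For the difference from DIV3 the count of 19 was 40 with no filter, 47 with only the groups compared, 62 and 534 with the replicate block in all 46 cultures and in the groups compared, 2 without cultures 10 and 11, and 12 to 22 with a library left out. Arc and Egr2 passed in every alternative run. The difference from SC siRNA called 0 genes in every alternative run, the culture block included. The Pxn difference of 0.22 passed 0.05 with median ratio size factors (0.23) and ranged from 0.14 to 0.29 with a library left out. With the culture pairing it was 0.24.

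Small differences that passed in no setting changed sign: Cnih2 with size factors (0.00604), the block in the 4 groups at DIV5 (0.00659) and without cultures 10 and 11 (0.043), Ddit4 with size factors (0.00947), the block in 46 cultures (0.049) and without cultures 10 and 11 (0.13), Dusp6 without cultures 10 and 11 (-0.21), and Irf9 with the block in 46 cultures (-0.058), in the 4 groups (-0.042) and without cultures 10 and 11 (-0.066). With a library left out, Cnih2 ranged from -0.075 to 0.053, Ddit4 from -0.12 to 0.16, Dusp6 from -0.11 to 0.21, Dusp8 from -0.053 to 0.061, Git1 from -0.013 to 0.19, Irf9 from -0.044 to 0.081 and Pcna from -0.044 to 0.12.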
